A study of Mus musculus with 6 samples.

Results

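The genes of the mitochondrial protein import translocases were followed in mouse liver after a short high-cholesterol diet. They were chosen by symbol alone, as every gene named Timm or Tomm followed by a digit, without pseudogene symbols, and 24 of the 20673 genes in the count table met that rule. They comprise 14 Timm genes and 10 Tomm genes, and 1 of the latter, Tomm6os, is an antisense RNA of the Tomm6 locus and not a subunit. Total RNA was sequenced from the livers of 6 C57BL/6J mice. The RD group (n = 3) ate a regular chow, and the HCD group (n = 3) ate for 3 days the diet TD.88051, which is rich in cholesterol and cocoa butter and also holds sodium cholate. The treatment labels name nothing beyond the diet. The diets differ in fat and cholate as well as in cholesterol, so these components cannot be told apart. The study used mice of both sexes, and the labels give neither the sex nor the age of a liver.

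Nearly all mitochondrial proteins are encoded in the nucleus, made in the cytosol and imported as unfolded precursors. The TOM complex of the outer membrane recognises and admits them. Presequence-carrying precursors then pass through the TIM23 channel and its ATP-driven motor into the matrix, while the metabolite carriers are escorted by small TIM chaperones to the TIM22 complex, which inserts them into the inner membrane. Hepatocytes are rich in mitochondria, which carry out fatty acid oxidation, ureagenesis and steps of bile acid synthesis.

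The RD libraries held 13771630 to 23129576 counts and the HCD libraries 13935491 to 18545549. A count of 0 allowed up to 3 counts, or 0.130 to 0.218 on the scale of counts per library total before TMM scaling. CPM below are counts scaled with TMM factors to a common library size. The 8 hepatocyte markers summed to 87260 to 123700 CPM with RD and 97570 to 141300 with HCD, and none of them was at 0. HCD replicate 1 stood apart from the other livers. It had 5032 counts of Xist, the X-inactivation RNA of female cells, against 0 in the others, and 0 counts over 4 Y-linked genes against 1075 to 2666. That liver also had the highest sums of the Kupffer cell markers (304.7 CPM, against 90.4 to 161.8 with RD) of the stellate cell markers (334.9 CPM, against 172.0 to 191.0), of the endothelial markers (171.6 CPM, against 83.8 to 144.1) and of the leukocyte markers (13.1 CPM, against 6.01 to 10.4). No marker of these 4 lists was called between the diets, and among 5 red cell markers 2 were called higher with HCD. The part of cell makeup in the values below was not tested, and in whole liver fewer cells of a type and less RNA per cell cannot be told apart. The value without HCD replicate 1 is therefore given for the counts of calls and for each named gene whose log2 fold change it moved by over 1.5 times or turned.

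Of the 24 genes, 22 had enough counts to be tested with edgeR's quasi-likelihood test, which was adjusted by Benjamini-Hochberg over the 13105 genes that passed the filter on low counts. Only Timm23, a core subunit of the TIM23 complex, was called higher with HCD at an adjusted p under 0.05. No translocase gene was called lower. Over all genes tested 3.27% were called, 1.95% higher and 1.32% lower. A share of 1 in 22 is near that background and is no result about the genes as a group. The other 21 genes had log2 fold changes of HCD over RD between -0.36 (Tomm7) and 0.47 (Tomm22). The median over the 22 genes was 0.23, against 0.0074 over all genes tested, and 16 of them lay above 0 and 6 below, where 50.7% of all genes lay above 0. At an unadjusted p of 0.05 or less, 3 were higher (Timm23, Tomm22 and Timm17b) and 0 lower, against 11.1% and 9.81% of all genes. The 3 HCD livers were all above the 3 RD livers for 5 genes (Timm23, Tomm22, Timm17b, Timm8b and Timm10) and all below them for Tomm34. Over all genes these patterns held for 14.0% and 13.7%. Without HCD replicate 1 the median was 0.20 and 0 translocase genes were called, against 2.61% of all genes. The median was 0.12 without HCD replicate 3 and 0.15 without RD replicate 3.

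**Figure D1:**
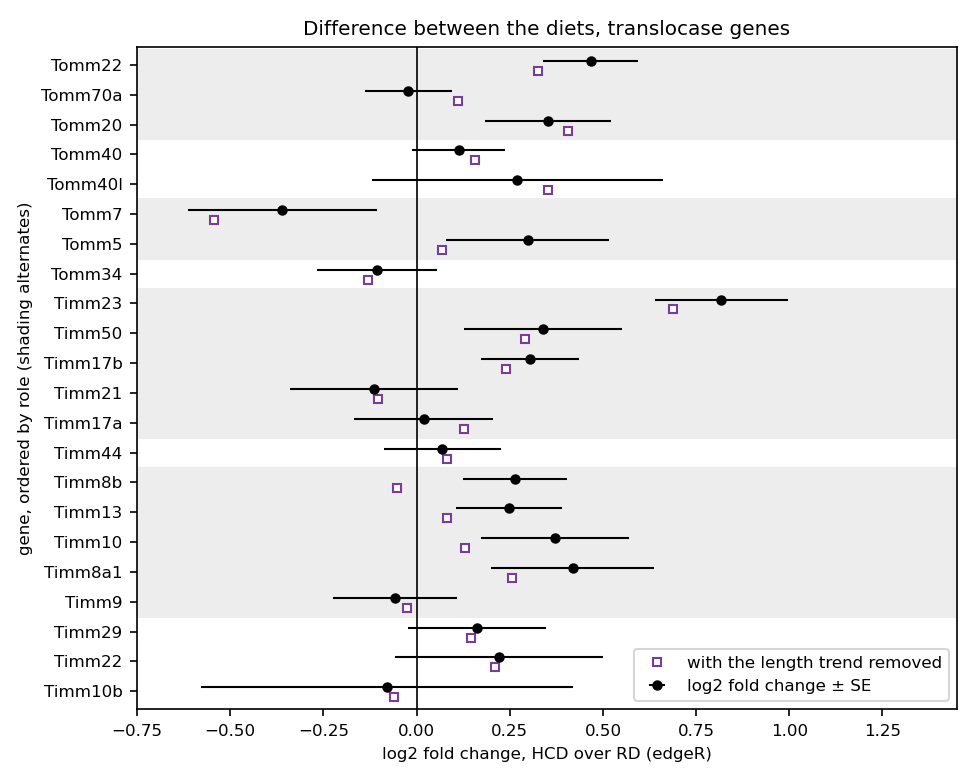
Log2 fold change of HCD over RD (horizontal axis) for the 22 translocase genes tested, ordered by role; dots with bars are edgeR estimates with their standard error and open squares are the estimates after the trend with gene length was removed. Timm23 lies farthest to the right at 0.82, most dots lie between -0.1 and 0.5, and the squares of short genes such as Timm8b and Tomm5 lie to the left of their dots.

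Timm23 (ENSMUSG00000013701) lies on the minus strand of chromosome 14 from 32180162 to 32201898 of GRCm38, with 1786 exonic bases. Its product is a core subunit of the complex through which presequence proteins cross the inner membrane. On the FPKM scale, fragments per length and library size, Timm23 was at 31.1, 21.6 and 21.9 in the 3 RD livers and at 48.1, 38.4 and 47.4 in the 3 HCD livers. Every HCD liver was above every RD liver, and RD replicate 1 was the highest of its group. Scaled to CPM, Timm23 was 30.4 ± 6.72 with RD and 53.6 ± 5.37 with HCD (SD, n = 3 each). The log2 fold change was 0.82 with a standard error of 0.18, or 1.76-fold, and the edgeR test put its adjusted p at 0.0486. The exact permutation test of its 6 values, two-sided, gave p = 0.1, the smallest that 3 against 3 livers allow. The call lay close to the threshold. It was lost when any 1 of the 6 livers was left out, with log2 fold changes of 0.72 to 1.02 and edgeR adjusted p from 0.0593 (without HCD replicate 2) to 0.192 (without RD replicate 2). Without HCD replicate 1 the difference was 0.77 (adjusted p = 0.0857, edgeR). DESeq2 gave 0.80 with an adjusted p of 0.00434, and called no other translocase gene, against 7.43% of all genes. Over the 17 alternatives the adjusted p of Timm23 ran from 0.00434 to 0.192.

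Timm23 has near-identical copies in the genome that reads may be shared with. The copies in the count table, Gm10171, Gm10273 and Gm16209, had 11 to 15, 2 to 15 and 0 to 4 counts per liver, against 385 to 1128 for Timm23. With the counts of the copies added, the Timm23 log2 fold change was 0.81 (adjusted p = 0.0475, edgeR).

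The bases before the start of Timm23 are shown because it was the 1 translocase gene called. They are chr14:32201892-32202141 of GRCm38.p6 on the minus strand, 250 bases up to the RefSeq start, and the capitals mark the match to the ETS-family motif CCGGAAGT, read here on its other strand.
Timm23: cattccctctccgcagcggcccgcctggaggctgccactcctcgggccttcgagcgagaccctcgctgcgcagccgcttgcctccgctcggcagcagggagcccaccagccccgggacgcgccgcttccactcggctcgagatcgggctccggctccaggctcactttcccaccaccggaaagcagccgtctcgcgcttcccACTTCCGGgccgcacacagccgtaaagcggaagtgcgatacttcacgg
ETS-family factors, NRF1 and YY1 are known regulators of nuclear genes for mitochondrial proteins, so their motifs were searched on both strands from 250 bases before to 50 after the start. RefSeq promoters were at hand for 21 of the 24 genes. The ETS motif CCGGAAGT was in 5 of them (Timm10, Timm10b, Timm23, Timm29 and Tomm70a), and in 9.04% of the promoters of genes tested. The NRF1 motif (GCGC, any base, then TGCGC) was in 2 (Timm8b and Tomm20), against 11.4%, and the YY1 motif AAGATGGC in 1 (Timm50), against 5.25%. These matches are descriptions of the sequence, and only Timm23 among the 8 genes holding one was called.

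The TIM23 channel has 4 further subunits among the translocase genes, and none was called. The median log2 fold change over its 5 genes was 0.30, with 4 of 5 above 0. Timm50, which receives precursors in the intermembrane space and guards the channel, was at 17.1, 17.4 and 19.9 FPKM with RD and 19.7, 18.3 and 32.1 with HCD. HCD replicate 3 alone was far above the rest, and the other HCD livers lay within the range of RD. Its log2 fold change of 0.34 (adjusted p = 0.401, edgeR) was 0.046 without that liver. Timm17b, an X-linked partner of Timm23 in the channel, was at 15.7, 14.5 and 17.8 FPKM with RD and 20.1, 20.4 and 19.6 with HCD. The diets did not overlap, and the log2 fold change of 0.30 had an adjusted p of 0.230 (edgeR). It was 0.32 without HCD replicate 1. Timm17a, the other form of that subunit, was at a lower level per length, 3.72 ± 0.542 FPKM with RD and 3.82 ± 0.598 with HCD (SD, n = 3 each). The Timm17a difference was 0.02, with a standard error of 0.19, and -0.064 without HCD replicate 1. Timm21, which links the channel to the TOM complex and to respiratory chain assembly, had a difference of -0.11 (adjusted p = 0.810, edgeR), and of -0.28 without HCD replicate 1.

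Timm44, which tethers the matrix Hsp70 to the exit of the channel, is the 1 motor subunit among the translocase genes. It was at 16.3, 12.9 and 17.0 FPKM in the RD livers and 16.3, 14.0 and 19.0 in the HCD livers. The diets overlapped over most of their range, and the log2 fold change was 0.07 with a standard error of 0.16.

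The TOM receptors had a median log2 fold change of 0.35 over 3 genes, of which none was called. Tomm22, the central receptor that also organises the complex, was the most abundant of them per length, at 28.2, 28.2 and 26.7 FPKM with RD and 36.7, 37.8 and 42.4 with HCD. The 3 HCD livers were all above the RD livers, which were themselves close together. In CPM the gene was at 31.3 ± 1.61 with RD and 43.3 ± 3.28 with HCD (SD, n = 3 each), a log2 fold change of 0.47 (standard error 0.13) with an adjusted p of 0.0922 (edgeR). Leaving out single livers moved it between 0.40 and 0.52, and it was 0.52 without HCD replicate 1. Tomm20, the presequence receptor, was at 10.1, 8.51 and 9.47 FPKM with RD and 13.8, 13.03 and 9.59 with HCD. HCD replicate 3 lay within the range of RD, and the log2 fold change was 0.35 (adjusted p = 0.276, edgeR). Tomm20 can share reads with the copy Gm14494, which had 44 to 86 counts, and with copies added its difference was 0.38. Tomm70a, the receptor for carrier precursors and their cytosolic chaperones, was at 15.0 to 16.4 FPKM with RD and 15.0 to 16.2 with HCD. Its log2 fold change of -0.02 had a standard error of 0.12.

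Tomm40, the β-barrel pore of the outer membrane, was at 11.6, 10.3 and 10.3 FPKM in RD and 11.9, 11.5 and 12.0 in HCD livers. The HCD livers were close together at the top of the RD range and overlapped with RD replicate 1. The Tomm40 log2 fold change was 0.11 with a standard error of 0.13 (adjusted p = 0.652, edgeR), and 0.066 without RD replicate 3 and 0.17 without RD replicate 1. Its relative Tomm40l was at 0.772 to 1.87 FPKM, the lowest mean of the 22 translocase genes tested, and 64.3% of its exonic bases lie under exons of Nr1i3, a nuclear receptor gene. Without knowledge of strand in the counting, reads from these 2 genes cannot be fully told apart. Tomm40l had a log2 fold change of 0.27 with a standard error of 0.39, of 0.53 without HCD replicate 1, and of -0.15 without HCD replicate 3.

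Of the small TOM subunits, which stabilise the pore, Tomm7 had the lowest log2 fold change among the translocase genes. It was at 25.4, 22.2 and 29.5 FPKM with RD and 28.9, 13.8 and 18.3 with HCD. HCD replicates 2 and 3 were below all RD livers, while HCD replicate 1, the liver that stood apart, lay among them. The log2 fold change was -0.36 with an adjusted p of 0.452 (edgeR), and it was -0.70 (adjusted p = 0.111) without HCD replicate 1 and -0.16 without HCD replicate 2. Tomm5 was at 18.6 to 20.9 FPKM with RD and 17.6 to 30.4 with HCD, and its log2 fold change was 0.30 (adjusted p = 0.472, edgeR). HCD replicate 1 was its highest liver, and without it the difference was 0.14, against 0.49 without HCD replicate 3. Tomm6 had 1, 4 and 0 counts in the RD livers and 1, 0 and 0 in the HCD livers, and Tomm6os 4, 2 and 12 against 3, 3 and 0. Neither passed the filter, and no fold change is given. Exons of Gm21981 (on the same strand), Tomm6os and Usp49 together cover 84.2% of the exonic bases of Tomm6, so its counts are uncertain. Tomm34, a cytosolic co-chaperone that hands precursors to the receptors, was at 5.404, 5.56 and 5.98 FPKM with RD and 5.47, 5.25 and 5.28 with HCD. Its CPM did not overlap between the diets, its FPKM did, and the log2 fold change was -0.11 (adjusted p = 0.749, edgeR).

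**Figure D2:**
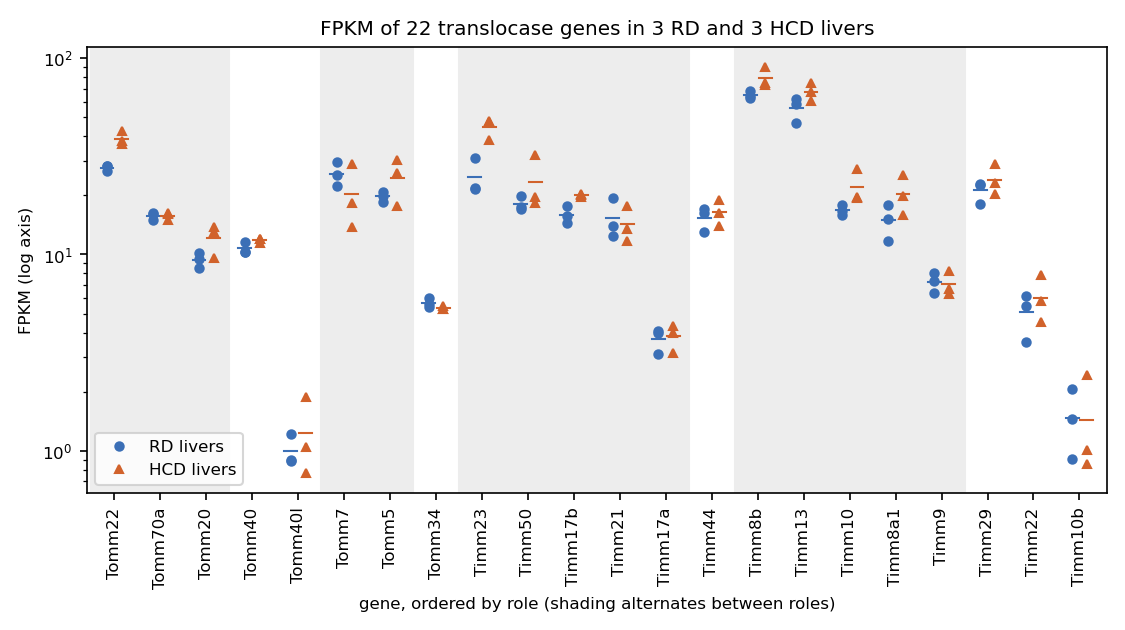
FPKM on a log axis for the 22 translocase genes tested, ordered by role, in the 3 RD livers (circles) and 3 HCD livers (triangles), with a short line at each group mean. Levels ran from about 1 FPKM (Tomm40l) to over 60 (Timm8b, Timm13), and Timm23, Tomm22 and Timm17b are the genes whose HCD points stand most clearly above their RD points.

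The small TIM chaperones, which shield hydrophobic carrier precursors in the intermembrane space, include the most abundant translocase genes per length, Timm8b and Timm13, while the other 3 ranked between 9 and 17 of the 24 by mean FPKM. Timm8b was at 64.4, 62.6 and 68.0 FPKM with RD and 73.0, 75.1 and 90.1 with HCD. The 2 diets did not overlap, and HCD replicate 3 was the highest. The log2 fold change was 0.26 with a standard error of 0.14 (adjusted p = 0.319, edgeR), and 0.17 without HCD replicate 3. Timm13, the partner of the Timm8 proteins in 1 of the chaperone complexes, had a log2 fold change of 0.25 and Timm8a1, the X-linked form, one of 0.42 (adjusted p = 0.362 and 0.314, edgeR). Timm13 was at 0.15 without RD replicate 2, and Timm8a1 at 0.23 without HCD replicate 3. Timm10 and Timm9 form the other complex, which serves the carriers, and had log2 fold changes of 0.37 and -0.06 (adjusted p = 0.326 and 0.874, edgeR). Timm10 was at 15.9 to 17.8 FPKM with RD and 19.4 to 27.2 with HCD, the groups not overlapping. Without HCD replicate 1, its highest liver, the Timm10 difference was 0.20 (adjusted p = 0.619, edgeR). Timm9 was then at -0.17. Over the 5 small TIM genes the median was 0.26, and 4 of them have under 2000 exonic bases. With the trend with gene length removed, as described below, their median was 0.082.

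The TIM22 complex, which inserts carriers into the inner membrane, had a median of 0.16 over 3 genes. Timm29, a subunit that docks the complex to TOM, was the most abundant, at 22.7, 22.9 and 18.1 FPKM with RD and 20.3, 29.0 and 23.1 with HCD. The diets overlapped, and the log2 fold change was 0.16 with a standard error of 0.18, or 0.29 without HCD replicate 1. Timm22, the channel subunit, was at 3.59 to 6.15 FPKM with RD and 4.50 to 7.83 with HCD, a log2 fold change of 0.22 with a standard error of 0.28, or 0.40 without that liver and -0.0051 without HCD replicate 3. Timm10b was at 0.906 to 2.07 FPKM with RD and 0.851 to 2.44 with HCD, on 36 to 74 counts. Its log2 fold change of -0.08 had a standard error of 0.50 and turned to 0.20 without HCD replicate 1. Exons of Arfip2, Gm22504 and Gm45799 together cover 22.1% of its exonic bases, and Arfip2 itself was at -1.08 (adjusted p = 0.0686, edgeR).

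Gene length moved with the difference between the diets. The summed exon lengths of the genes tested were taken from GENCODE M21, and the genes were divided by them into 10 classes of like size. Class medians over all genes ran from 0.32 among the shortest (57 to 1436 bases) to -0.17 among the longest (9709 to 123179 bases), and the rank correlation with length was -0.25 over 13101 genes. Over the 22 translocase genes it was -0.38, from Timm8b at 518 bases to Tomm70a at 9777. Both correlations are across genes, which share the same 6 libraries. For Timm21 the counts and FPKM imply 1315 bases in place of the 3722 in GENCODE M21, and with that length the correlation over the 22 genes was -0.25. The other 23 genes had equal lengths within 1%. Dividing by length, as FPKM does, leaves this trend in place, since a gene has the same length in every liver.

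The trend differed between the libraries by diet. The slope of a gene's log2 deviation on log2 length, over all genes, was 0.041, 0.064 and 0.047 in the RD livers and -0.013, -0.051 and -0.088 in the HCD livers. Short genes were thus relatively high in every HCD liver and relatively low in every RD liver. Diet and the length trend cannot be told apart in these 6 libraries. Over the translocase genes alone the slopes were 0.027, 0.087 and -0.0050 with RD and -0.10, 0.012 and -0.020 with HCD. Those slopes overlapped between the diets. Whether RNA integrity or library preparation moved with the length trend was not tested. The library names begin with A for the RD livers and with Liver for the HCD livers. The labels do not say whether the groups were prepared apart.

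Set against their own length class, the translocase genes stood closer to other genes. The median of their log2 fold changes minus the class median was 0.11, and 14 of 22 lay above their class. The 8 genes under 2000 bases had a median log2 fold change of 0.34, and the median of their differences from their own classes was only 0.016. The 14 genes of 2000 bases or more had a median of 0.09, and the median of their differences from their own classes was 0.14. Without HCD replicate 1 the medians of the short and longer genes were 0.27 and 0.16. This boundary was chosen after the values were seen. With the implied length Timm21 moved to the shortest class, at -0.43 from its median. The medians of the differences from the classes became -0.021 for 9 short genes and 0.14 for 13 longer ones. Tomm7 was the farthest below its class, at -0.68, and Timm23 the farthest above, at 0.59, with Tomm20 next at 0.37.

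A second fit removed the length trend from each library before the test. The median over the translocase genes was then 0.13, against 0.029 over all genes. Of the 22 genes 16 lay above 0, against 52.9% of all genes, and 0 were called, against 1.92%. In that fit Timm23 was at 0.69 with an adjusted p of 0.0990, and Tomm22 at 0.33 with an adjusted p of 0.234 (edgeR). Timm8b went to -0.05, Tomm5 to 0.07, Timm10 to 0.13 and Timm13 to 0.08, so that these short genes stood closer to 0. The long genes moved the other way, with Tomm70a at 0.11, Timm17a at 0.13 and Tomm20 at 0.41. Tomm7 was then at -0.54 (adjusted p = 0.324, edgeR). After the correction the rank correlation with length was 0.14 over the translocase genes and -0.044 over all genes. The trend was not fully removed. Over all genes the shortest and next shortest length classes kept medians of 0.088 and 0.099, and the longest had -0.0080.

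**Figure D3:**
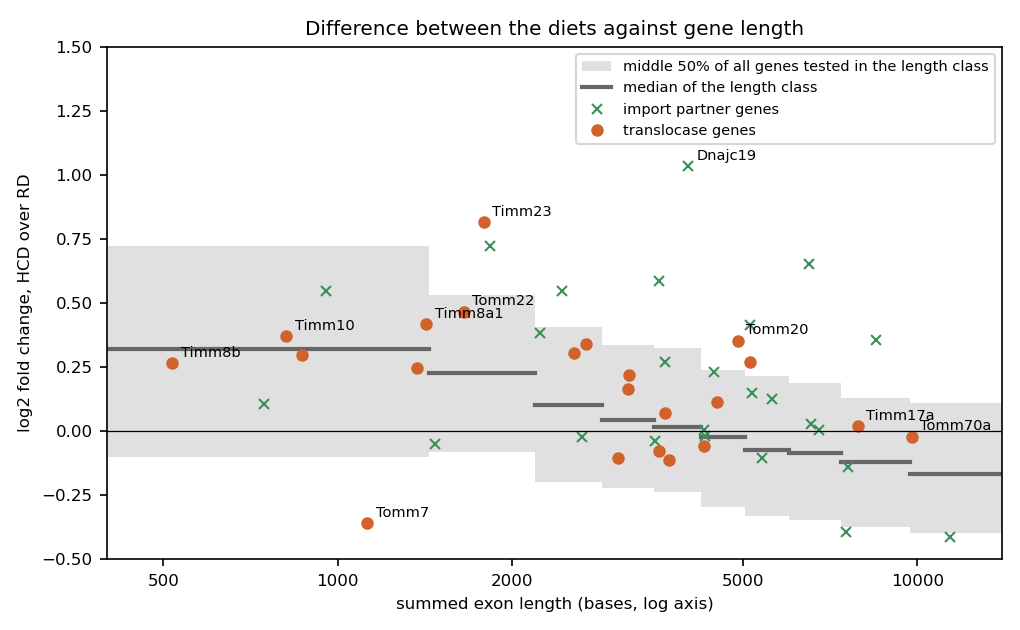
Log2 fold change of HCD over RD against summed exon length (log axis) for the translocase genes (circles) and 25 import partner genes (crosses); grey boxes span the middle 50% of all genes tested in each of the 10 length classes and dark lines mark the class medians (Timm21 is drawn at its M21 length). The class medians go from 0.32 down to -0.17, most circles lie inside the boxes, and Timm23, Tomm20 and Tomm40l lie above their box while Tomm7 lies below.

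The livers of a diet differed among themselves by gene and by gene length. The median deviation of the 22 genes from their mean over the 6 livers, in log2 units, was 0.014, -0.073 and -0.16 in the RD livers and 0.13, 0.056 and 0.084 in the HCD livers. For the genes under 2000 bases it was -0.054, -0.18 and -0.17 with RD and 0.29, 0.074 and 0.20 with HCD. For the longer genes it was 0.035, 0.019 and -0.16 with RD and 0.010, 0.027 and 0.038 with HCD. On these medians the HCD livers were above the RD livers for the 22 genes together and for the short genes. For the longer genes the diets overlapped, and only RD replicate 3 stood apart, below the rest. Which HCD liver was highest differed by gene, for example HCD replicate 1 for Tomm5, Timm10, Timm13 and Tomm20 and HCD replicate 3 for Timm50, Timm8a1, Timm8b, Tomm22 and Timm22.

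**Figure D4:**
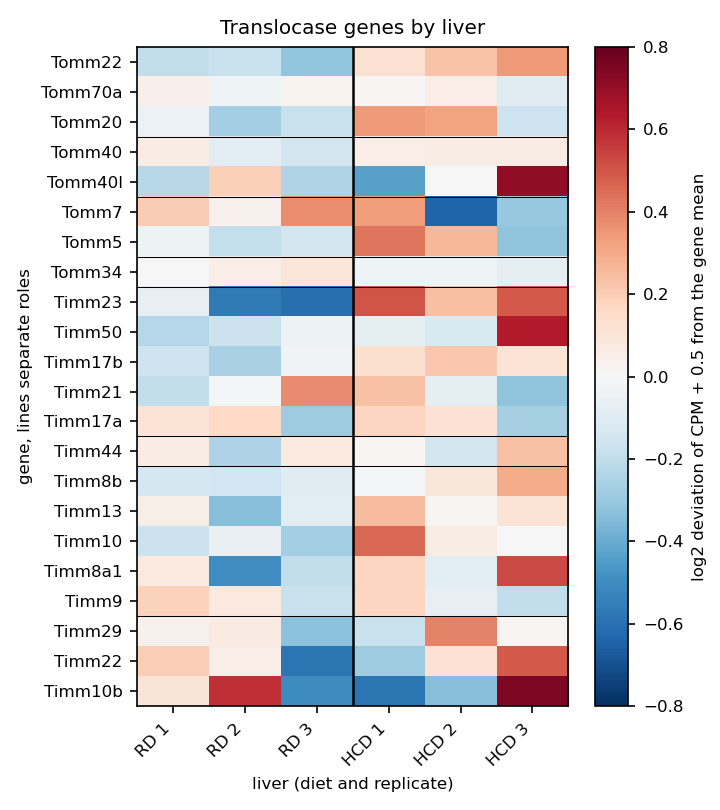
Colour map of the log2 deviation of each translocase gene (rows, grouped by role) from its mean over the 6 livers (columns, RD left and HCD right), computed on CPM plus 0.5. Deviations ran from -0.64 to 0.75. Timm23, Tomm22 and Timm17b are below 0 in every RD liver and above 0 in every HCD liver. Most other genes mix within a diet.

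The translocases work with soluble and membrane-bound partners, and 25 such genes were listed and all tested. Their median log2 fold change was 0.12, with 17 above 0 and 8 below. Only Dnajc19 was called higher and none lower, against 3.27% of all genes. At an unadjusted p of 0.05 or less 8 were higher, against 11.1% of all genes, and 0 lower. The 3 HCD livers were all above the RD livers for 8, against 14.0% of all genes. With the length trend removed their median was 0.20, and 0 were called, against 1.92% of all genes. Without HCD replicate 1 the median was 0.069 and 0 were called, against 2.61%.

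Dnajc19 (ENSMUSG00000027679), on chromosome 3 from 34056020 to 34081321 with 4027 exonic bases, encodes a J-protein of the import motor that stimulates the matrix Hsp70. It was at 8.51, 5.42 and 8.62 FPKM with RD and 16.8, 11.5 and 18.8 with HCD. Every HCD liver was above every RD liver. The log2 fold change was 1.04 with a standard error of 0.23 (adjusted p = 0.0495, edgeR), and the median of its length class was 0.017. With the length trend removed Dnajc19 was at 1.06 (adjusted p = 0.0649, edgeR). The call was lost without each single liver except HCD replicate 2, with log2 fold changes of 0.86 (without RD replicate 2) to 1.204, and without HCD replicate 1 it was 0.99 (adjusted p = 0.0857, edgeR). Its copy Dnajc19-ps had 7 to 56 counts, and with those added the log2 fold change was 1.03 and the adjusted p 0.0589 (edgeR).

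The other partners named are the most abundant of each kind. Hspa9, the matrix Hsp70 that pulls precursors inward, was at 162 ± 17.8 FPKM with RD and 162.1 ± 26.1 with HCD (SD, n = 3 each), a log2 fold change of -0.02 with a standard error of 0.16, or -0.14 without HCD replicate 1. Hspd1, the matrix chaperonin, had -0.02 with a standard error of 0.19, or -0.094 without that liver. Pmpcb, a subunit of the peptidase that removes presequences, had 0.41 (adjusted p = 0.110, edgeR), and Gfer, which keeps the intermembrane oxidation of small TIM proteins running, 0.38 (adjusted p = 0.121). In both, every HCD liver was above every RD liver. Oxa1l, the insertase for proteins exported from the matrix, had 0.23. Mtch1, an outer membrane insertase, had 0.12, or 0.069 without HCD replicate 1. Agk, a subunit of TIM22, had -0.41 with a standard error of 0.46, or -0.98 without that liver.

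Other families of nuclear genes for mitochondrial proteins had medians above those of the translocases. The 48 Nduf genes, mostly complex I subunits with a median length of 1535 bases, had a median log2 fold change of 0.43, with 8 called higher and 0 lower, where 1.95% of all genes were called higher. Their calls were 4 without HCD replicate 1, against 2.61% of all genes, and 3 with the length trend removed, against 1.92%. The 77 mitochondrial ribosomal protein genes had 0.27 at a median length of 2533 bases, with 7 called higher and 0 lower. In the same alternatives 6 and 1 were called, the latter a share below the 1.92% of all genes. The 22 translocase genes, at a median length of 3105 bases, had 0.23. With the length trend removed the medians were 0.28, 0.25 and 0.13. Differences between these families were not tested.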

How the data were processed

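Liver RNA of 6 mice was compared between HCD and RD, with diet and replicate taken from the labels. The authors deposited read counts per gene, whole numbers without normalization, and FPKM, counts divided by gene length and library size. Columns of the authors' own comparison, which hold log2 fold changes, p-values and adjusted p, were not used. The submitters' processing notes name STAR, HTSeq, DESeq2, edgeR and GRCm39, while the gene lengths implied by FPKM equalled those of GENCODE M21 (GRCm38) within 0.1% for at least 94.85% of genes with 50 counts or more. Of 20673 identifiers 20666 were in M21, from which positions and summed exon lengths were taken. Among the 24 translocase genes only Timm21 differed (1315 bases implied, 3722 in M21), and its M21 length was used unless stated. Promoters and their build GRCm38.p6 are from RefSeq.

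Counts were fitted with edgeR 4.0.16 in R 4.3.3 (filterByExpr by diet, TMM factors 0.8863 to 1.073, quasi-likelihood F test without covariates, Benjamini-Hochberg over 13105 genes). CPM are TMM-scaled. The alternatives were DESeq2 1.42.0, RLE and upper-quartile factors, no filter, a mean of 50 counts, limma-trend (3.58.1) on log2 of FPKM plus 1 or 0.1, a length correction by offsets per library (loess of log2 CPM on length, span 0.5, degree 1, prior count 2), a replicate block and each liver left out. Copies added (minimap2 2.31, at least 200 bases, 90% identity for pseudogenes and 95% for coding genes), the longest transcript as length and the implied length of Timm21 were chosen after seeing the data. Code was tested on simulated data, and figures were drawn with matplotlib 3.10.9 in Python 3.11.15.

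Every translocase gene could be named, with values per liver for those called and the most abundant of each role, and partners where called or most abundant of their kind. Genes with values shown beyond that rule (Timm50, Timm17b, Tomm20, Tomm34, Tomm6 and Tomm6os per liver, and ranges of others) were chosen after their values were seen. The translocase genes, partners, families and marker lists were chosen with earlier results of these data known. Intervals of counting error are not given for single livers, since the spread between livers, which the labels describe as separate samples without naming the animals, sets the precision and may be partly technical.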

Additional observations from a re-analysis of the deposited data

How the results depend on the processing

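The median log2 fold change of the translocase genes, 0.23 in the main analysis, was 0.13 with the length trend removed and 0.11 with that trend on the longest transcript, and 0.12 to 0.25 over the 6 analyses that left out 1 liver. The single call among them (Timm23) became 0 with RLE factors, with both limma analyses, with both length corrections and without any 1 liver. The single partner call (Dnajc19) became 0 with RLE factors, both limma analyses, both length corrections and copies added, and was 0 to 1 with 1 liver left out. Over 17 alternatives the adjusted p of Timm23 ran from 0.00434 to 0.192, with 5 below 0.05, and that of Dnajc19 from 0.00122 to 0.164, with 6 below.

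Same-numbered RD and HCD livers did not deviate together (correlations -0.0761, 0.0879 and -0.0413), and not every liver correlated best with its own number. With the replicate block the translocase calls were 0, Timm23 having an adjusted p of 0.0657, and Dnajc19 had one of 0.0398 (edgeR).

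Of 22 genes, 12 kept their sign in every setting and 20 in those with 6 livers. Timm8b went to -0.052 and -0.060 with the 2 length corrections, and Tomm70a to 0.11 in both and 0.012 with upper-quartile factors. With 1 liver left out the ranges crossed 0 for Timm10b (-0.69 to 0.26), Timm17a (-0.11 to 0.14), Timm21 (-0.28 to 0.074), Timm22 (-0.0051 to 0.40), Timm29 (-0.015 to 0.29), Timm44 (-0.044 to 0.16), Timm9 (-0.17 to 0.025), Tomm40l (-0.15 to 0.53) and Tomm70a (-0.056 to 0.014). The cause of these changes was not tested beyond the fewer livers that such an analysis holds. Groups of 3 limit every call here, and at 36 to 79 counts Timm10b and Tomm40l had the widest errors.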
